A study of Mus musculus with 6 samples.

Results

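The genes described here encode laminin chains, nidogens and perlecan, the proteins that make up much of a basement membrane together with collagen IV. They are the laminin α chain genes Lama2, Lama4 and Lama5, the β chain genes Lamb1 and Lamb2, the γ chain gene Lamc1, the nidogen genes Nid1 and Nid2, and Hspg2, which encodes perlecan. These 9 genes were chosen by function from 22180 named genes on the arrays. Each was read from a probe set that the platform annotation assigns to that gene alone, taking the brightest on average over all arrays where there was a choice.

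The arrays compared dermal fibroblasts of K14-PTHrP (KrP) transgenic female mice with those of wild-type (WT) female littermates, all aged 8 to 12 weeks, from a line bred to C57BL/6 mice. The transgene uses the keratin 14 promoter, which directs parathyroid hormone-related protein to basal keratinocytes, so it is not driven in the fibroblasts themselves, and the ventral skin of KrP mice is described as nipple-like. WT ventral skin is labelled as telogen, the resting phase of the hair cycle, and the KrP labels name no phase. The comparison asks how gene expression of dermal fibroblasts differs between nipple-like and ordinary ventral skin. There were 3 KrP and 3 WT samples on 1 array each, named below by group and replicate number. Cells were pooled for sorting and collected as viable CD140-positive cells without CD31, CD45, CD117 or CD49f. The labels name 3 mice as the source without saying whether this is per sample, so the p-values reflect the spread of these arrays, and that spread may be technical in part.

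A laminin molecule is a trimer of an α, a β and a γ chain, and many laminins, though not all, are cross-shaped and polymerise on cell surfaces. Nidogens bridge the laminin γ1 chain to collagen IV, and perlecan is a large proteoglycan whose heparan sulfate chains hold growth factors. In skin, fibroblasts supply nidogen and several laminin chains to basement membranes that lie under the epidermis and around hair follicles, vessels, nerves and muscle.

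The promoter of Hspg2 is shown because Hspg2 was the gene of this set that passed the test. The window covers 250 bases before to 50 bases after the transcription start in RefSeq (mouse GRCm38.p6, chr4:137468553-137468852, plus strand), and capitals mark each GC box, GGGCGG on either strand, the core sequence that Sp1-type factors recognise.
Hspg2 promoter: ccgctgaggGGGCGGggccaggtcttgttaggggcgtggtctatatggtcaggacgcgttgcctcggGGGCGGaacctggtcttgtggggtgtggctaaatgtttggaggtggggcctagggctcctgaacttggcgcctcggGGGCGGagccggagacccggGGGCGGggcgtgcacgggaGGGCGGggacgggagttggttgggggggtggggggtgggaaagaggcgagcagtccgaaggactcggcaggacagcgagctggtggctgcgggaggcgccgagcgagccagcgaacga
The Hspg2 window held 5 GC boxes, all on the strand shown, and 70.3% of its bases were G or C. Of all 32851 promoter windows of this length in the table, 35.7% held at least 1 GC box and 2.71% held 5 or more. The windows of 6 of the 9 genes were in the table, and those of Lama4, Lamc1 and Nid2 were not used here. Lama5 had 4 GC boxes, Lamb1 had 2, Lama2 and Nid1 had 1 each, and Lamb2 had 0 in this window. These matches describe the letters of the windows and do not show that a factor binds there.

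All 9 genes had a mean log2 value above 6.28, the 95th percentile of 1105 olfactory receptor genes, which served as a guide to background since fibroblasts are not known to use them widely. Lama5 was close to that guide, at a mean of 6.65 over the 6 arrays, so differences in it may be compressed. Values of different probe sets are not comparable as amounts, so levels are compared within a gene only. Array medians over all probe sets lay between 6.34 and 6.43. Of the sort markers, Pdgfra, which encodes CD140a, had a WT mean of 13.23 ± 0.10 and a KrP mean of 13.47 ± 0.06 (SD, n = 3 each), and Ptprc, which encodes the leukocyte antigen CD45, had means of 4.85 ± 0.30 and 4.65 ± 0.30. Pdgfrb (CD140b) had a log2 difference of 0.43 (limma adjusted p = 0.428, or 0.0153 with the replicate number as a block), and Kit (CD117) had one of -0.04 with a mean of 6.20, below the guide.

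Hspg2 rose in KrP fibroblasts, and the other 8 genes did not pass the test. Calls were made with limma at a Benjamini-Hochberg adjusted p under 0.05 over all 22180 genes. Of all genes, 1.15% were called higher and 1.03% lower in KrP samples, against 1 of 9 higher and 0 of 9 lower here (2 had an unadjusted p under 0.05, both higher in KrP). With the replicate number as a block, 2 of the 9 were called higher and 0 lower, where 5.33% and 3.02% of all genes were. The median log2 difference was 0.08 over the 9 genes and 0.01 over all genes. Of the 9 differences, 7 were positive and 2 negative, where 50.8% of all genes had a positive difference. In size, 4 of the 9 were smaller than 0.1 (Lama5, Lamb1, Lamb2 and Lamc1). The share of all genes with an unadjusted p under 0.05 was not counted.

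**Figure D1:**
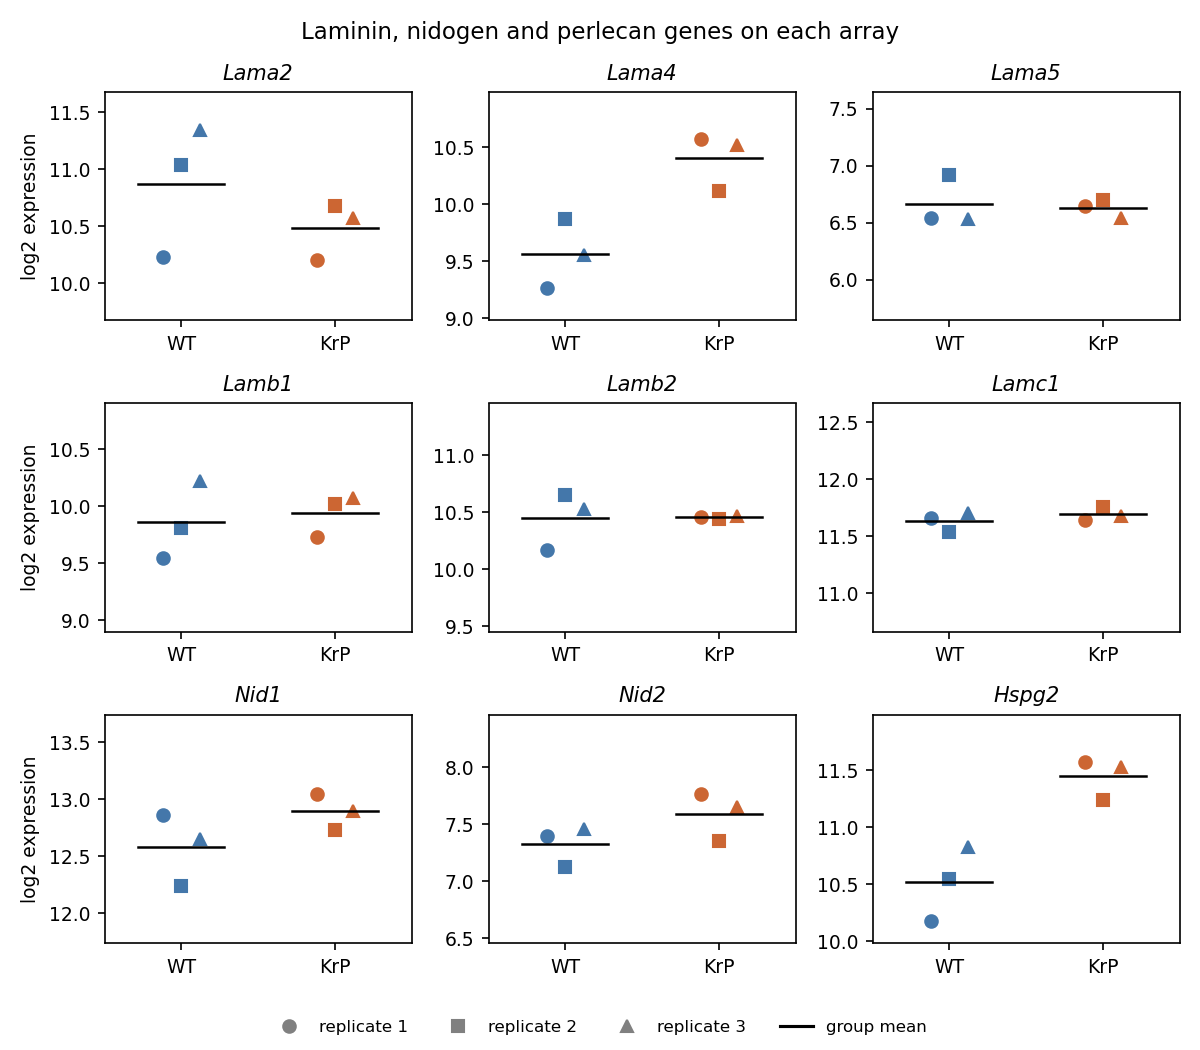
Log2 expression (vertical axes, each spanning 2 log2 units) of the 9 genes in WT and KrP samples, with 1 point per array, a marker shape per replicate number and a bar at the group mean. The 3 KrP values lie above the 3 WT values for Hspg2 and Lama4, and the groups overlap for the other 7 genes.

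Perlecan, the proteoglycan of the set, gave the largest difference, except with array weights (0.83, against 0.96 for Lama4) and without WT 2 (0.94 against 0.99). Hspg2 had log2 values of 10.18, 10.55 and 10.83 in WT 1, WT 2 and WT 3, and of 11.57, 11.24 and 11.53 in KrP 1, KrP 2 and KrP 3. The groups did not overlap, and the lowest KrP value, in KrP 2, lay 0.41 above the highest WT value, in WT 3. The WT mean of 10.52 ± 0.33 stood against a KrP mean of 11.45 ± 0.18 (SD, n = 3 each), a 1.9-fold rise (log2 difference 0.93 ± 0.17 SE, 95% interval 0.53 to 1.33, limma adjusted p = 0.0388). This difference was larger in size than that of 97.7% of all genes. KrP exceeded WT by 1.39, 0.69 and 0.70 within the replicate numbers 1, 2 and 3. The call rested on few arrays. It ended without WT 1 (adjusted p = 0.0787), WT 2 (0.107), WT 3 (0.0566), KrP 1 (0.0886) or KrP 3 (0.205) and with quantile normalization (0.053), and held without KrP 2 (0.0227).

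Among the α chains, which carry the globular domains that bind cells, none of the 3 genes passed the test, and Lama4 came nearest to it. Lama4 encodes the α4 chain, known from vessel walls, fat and other mesenchymal tissue. It had log2 values of 9.27, 9.87 and 9.56 in WT 1 to 3 and of 10.57, 10.12 and 10.52 in KrP 1 to 3. No KrP value reached down to a WT value, the gap between KrP 2 and WT 2 being 0.25, the narrowest between the groups. The WT mean was 9.57 ± 0.30 and the KrP mean 10.40 ± 0.25 (SD, n = 3 each). The log2 difference of 0.84 ± 0.19 SE (95% interval 0.41 to 1.26) did not pass (limma adjusted p = 0.0687), but did so with the replicate block (0.046) and without KrP 2 (0.0263). Across all genes, 11.4% had all 3 KrP values above all 3 WT values, and 8.93% had all 3 below. Of the 9 genes, Hspg2 and Lama4 were of the first kind and 0 of the second.

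Lama2 encodes the α2 chain, the main laminin α chain around muscle fibres and peripheral nerve, where its loss causes a muscular dystrophy. Its values were 10.23, 11.04 and 11.34 in WT 1 to 3 and 10.20, 10.68 and 10.57 in KrP 1 to 3. The groups overlapped, because WT 1 lay within the KrP range while WT 3 stood highest. The WT SD of 0.57 was larger than that of 98.7% of all genes. The log2 difference was -0.39 ± 0.27 SE (95% interval -1.01 to 0.23, limma adjusted p = 0.547). Within replicate numbers KrP was lower by 0.03, 0.36 and 0.77, in 3 of 3 pairs, with an adjusted p of 0.165 under the block.

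Lama4 and Lama2 can take the same place in a laminin trimer, and their ratio within an array was compared as a change, since its absolute size depends on the probes. The log2 value of Lama4 minus that of Lama2 was -0.96, -1.17 and -1.78 in WT 1 to 3, and 0.37, -0.56 and -0.05 in KrP 1 to 3. All 3 KrP samples lay above all 3 WT samples. The ratio was 2.33-fold higher in KrP samples (log2 difference 1.22, two-sided exact permutation p = 0.1, the smallest that 3 against 3 samples allow). This unequal change does not separate a higher Lama4 from a lower Lama2.

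Lama5 encodes the α5 chain, the chief laminin α chain of epithelial and adult vessel basement membranes. It lay at 6.54, 6.92 and 6.53 in WT 1 to 3 and at 6.65, 6.70 and 6.54 in KrP 1 to 3. The highest value was that of WT 2, and the other 5 arrays lay within 6.53 to 6.70. The log2 difference was -0.03 ± 0.14 SE (95% interval -0.35 to 0.28, limma adjusted p = 0.943), and 0.09 without WT 2. WT 2 also gave the highest value of 7 of 10 keratinocyte markers and of 6 of 8 macrophage and leukocyte markers. The same held for 5 of 6 melanocyte, 4 of 6 Schwann cell and 4 of 7 skeletal muscle markers. It held for 5 of 10 pericyte and smooth muscle, 4 of 10 endothelial, 1 of 6 adipocyte and 0 of 10 fibroblast markers. Across all genes, 26.1% were highest on that array. By their means, 5 of 10 keratinocyte, 5 of 8 macrophage and leukocyte and 5 of 6 melanocyte markers lay below the background guide. So did 2 of 6 Schwann cell markers. Of the 8 macrophage and leukocyte markers, 1 was called higher in KrP samples and 0 lower. This was Csf1r, with a mean of 7.56 (log2 difference 0.73, limma adjusted p = 0.0347), called in 2 of the 6 fits without 1 sample. Among the keratinocyte markers were Perp at 7.72 against at most 6.12 on the other arrays and Epcam at 6.33 against at most 5.21. The means of both over the 6 arrays, 6.10 and 5.25, lay below the guide. The summed signal of the keratinocyte markers was 10.82 on the log2 scale in WT 2, 10.27 and 10.53 in WT 1 and WT 3, and between 10.10 and 10.26 in KrP samples. Sfn, with a mean of 8.97, weighed most in this sum and was highest in WT 3, at 9.61. The part of these cell types in the Lama5 values was not tested.

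The β and γ chains, which every laminin trimer needs to assemble, showed differences near 0. Lamb1, the gene of the widespread β1 chain, had values of 9.55, 9.81 and 10.22 in WT and 9.73, 10.02 and 10.07 in KrP samples, and the KrP values lay inside the WT range. Its log2 difference was 0.08 ± 0.18 SE (95% interval -0.35 to 0.51, limma adjusted p = 0.888). Lamb2 encodes the β2 chain, known from the neuromuscular junction, the kidney glomerulus and vessels. It had values of 10.17, 10.65 and 10.53 in WT and 10.46, 10.44 and 10.47 in KrP samples. The 3 KrP values thus spanned 0.03 and the WT values 0.48, with almost equal means (log2 difference 0.01 ± 0.14 SE, 95% interval -0.31 to 0.32, limma adjusted p = 0.989). The ratio of Lamb2 to Lamb1 within arrays changed by -0.07 on the log2 scale (two-sided exact permutation p = 0.8).

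Lamc1 encodes the γ1 chain, shared by most laminins and the one that nidogen binds. Its values were 11.66, 11.54 and 11.70 in WT and 11.64, 11.76 and 11.68 in KrP samples. Its SDs were 0.08 and 0.06, and its standard error was the smallest of the set. The log2 difference of 0.06 ± 0.09 SE (limma adjusted p = 0.807) had a 95% interval of -0.14 to 0.26, which limits any change to between 0.909-fold and 1.2-fold. Such intervals assume that the samples are independent.

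The nidogens were both somewhat higher on average in KrP samples without passing the test. Nid1, the major nidogen of most tissues, had values of 12.86, 12.24 and 12.65 in WT 1 to 3 and 13.05, 12.73 and 12.90 in KrP 1 to 3. WT 1 lay above KrP 2, so the groups overlapped, but KrP exceeded WT by 0.19, 0.49 and 0.25 within each replicate number. The log2 difference was 0.31 ± 0.16 SE (95% interval -0.05 to 0.67, limma adjusted p = 0.382, or 0.0571 with the block). The other single-gene probe set of Nid1 gave 12.20, 11.89 and 12.07 in WT and 12.42, 12.08 and 12.27 in KrP samples, a difference of 0.20 in the same direction.

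Nid2, whose product can stand in for nidogen-1 at many sites, had values of 7.40, 7.12 and 7.46 in WT 1 to 3 and 7.76, 7.35 and 7.65 in KrP 1 to 3. As for Nid1, replicate 2 was the lowest of each group. KrP exceeded WT within each replicate number, by 0.36, 0.23 and 0.19, and the log2 difference was 0.26 ± 0.15 SE (95% interval -0.09 to 0.61, limma adjusted p = 0.464, or 0.192 with the block). The ratio of Nid2 to Nid1 changed by -0.05 (two-sided exact permutation p = 0.7). In all, 4 of the 9 genes (Hspg2, Lama4, Nid1 and Nid2) were higher in KrP within each of the 3 replicate numbers and 1 (Lama2) was lower in each. The share of all genes with either pattern was not counted, so these counts are no finding about the set.

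**Figure D2:**
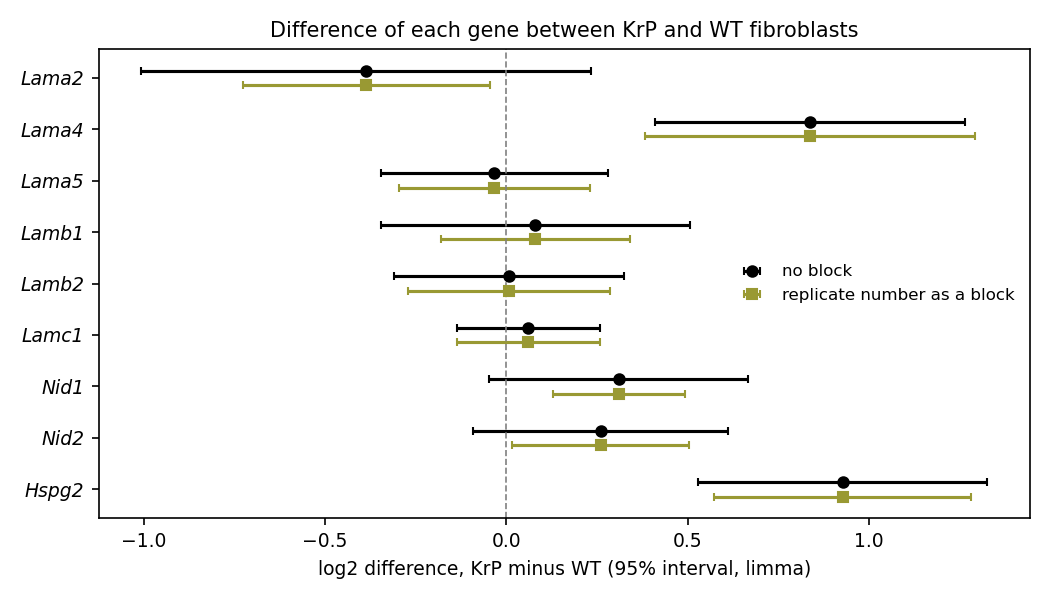
Log2 difference of each gene, KrP minus WT (horizontal axis), with 95% intervals from limma without a block (circles) and with the replicate number as a block (squares), 3 samples per group. The intervals of Hspg2 and Lama4 exclude 0 in both fits, and those of Nid1 (0.13 to 0.49), Nid2 (0.02 to 0.50) and Lama2 (-0.73 to -0.05) do so with the block alone, before adjustment over all genes.

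The calls depended on which arrays and which model were used. Hspg2 was called in 9 of 15 alternative fits and Lama4 in 3 of 15. Nid1 was called in 1 of 15, with array weights (adjusted p = 0.0442), and so was Lama2, as lower (0.0491). That setting gave KrP 3 a weight of 7.91 and KrP 1 and WT 2 weights of 0.41, and called 6410 of 22180 genes, against 483 in the fit reported here. The differences themselves kept their sign in all 15 fits for Hspg2 (0.76 to 1.08), Lama4 (0.69 to 0.99), Nid1 (0.14 to 0.45), Nid2 (0.16 to 0.38), Lama2 (-0.71 to -0.15) and Lamc1 (0.01 to 0.09).

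**Figure D3:**
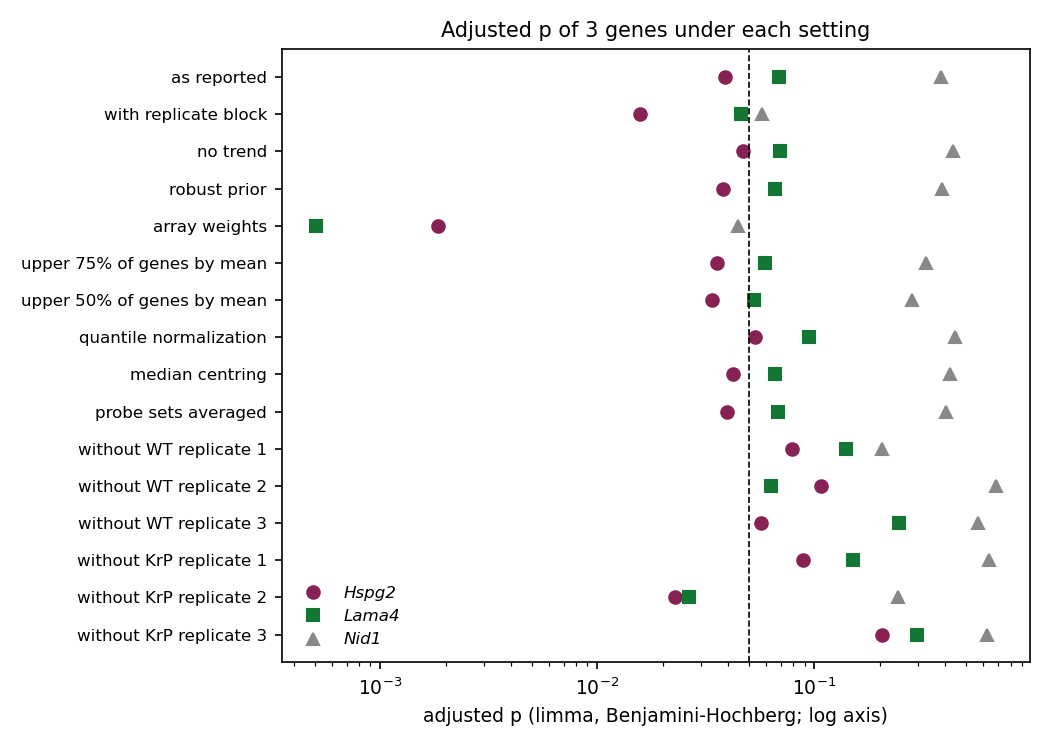
Adjusted p (horizontal log axis) of Hspg2, Lama4 and Nid1 under each setting (vertical axis), with a dashed line at 0.05. Hspg2 lies right of the line in 5 of the 6 fits that leave out a sample, and the fit without KrP 2 brings both Hspg2 and Lama4 left of it.

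The genes whose course over the 6 arrays was most like that of Hspg2 were sought among 13419 other genes above background, by the root-mean-square difference between mean-centred log2 values. They were Ltbp3 (0.086), which encodes a latent TGF-β binding protein of the matrix, Lzts2 (0.109), a leucine zipper protein, and Ephx1 (0.121), an epoxide hydrolase. Of the other genes of the set, Lama4 was nearest to Hspg2, at rank 18 with a difference of 0.182. The next was Nid2, at rank 1457 (0.393), and Lama2 was the farthest, at rank 12192 (0.713). The ranks describe 6 arrays and include the group difference itself.

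The main collagen IV genes, whose network nidogens link to the laminins, fell in KrP samples. Of 10 collagens of basement membranes, 0 rose and 2 fell (1 and 2 with the block). By their means, 4 of the 10 lay below the background guide (Col4a3 to Col4a6). The median difference was -0.06, or 0.04 without the lower 50% of genes. The 2 that fell were Col4a1 and Col4a2, which encode the collagen IV chains of nearly all basement membranes and lie head to head around a shared promoter. Col4a1 had values of 10.49, 10.34 and 10.50 in WT and 9.88, 9.75 and 9.74 in KrP samples (log2 difference -0.65 ± 0.11 SE, limma adjusted p = 0.0257). Col4a2 had a log2 difference of -0.71 ± 0.11 SE (limma adjusted p = 0.0169). Both calls ended without WT 1, WT 2, WT 3 or KrP 3, with adjusted p from 0.0519 to 0.171. The RefSeq promoter windows of the 2 genes overlap by 78 bases (GRCm38.p6, chr8:11312777-11312854, printed on the plus strand, the strand of Col4a2), shown because both genes fell, with the 1 GC box in capitals.
Col4a1 and Col4a2 shared promoter stretch: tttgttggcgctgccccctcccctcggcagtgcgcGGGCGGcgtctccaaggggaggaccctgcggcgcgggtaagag
Against this, Lamc1 and both β chain genes had differences of 0.01 to 0.08, and Hspg2 rose. The other laminin chains analysed were Lama1, Lama3, Lamb3 and Lamc3, and 0 of 4 passed in either direction by limma (0 had an unadjusted p under 0.05). Lama1 and Lama3 lay below the background guide by their means. Lamc3, with the largest difference of those above background, had a log2 difference of 0.26 ± 0.23 SE (limma adjusted p = 0.661).

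**Figure D4:**
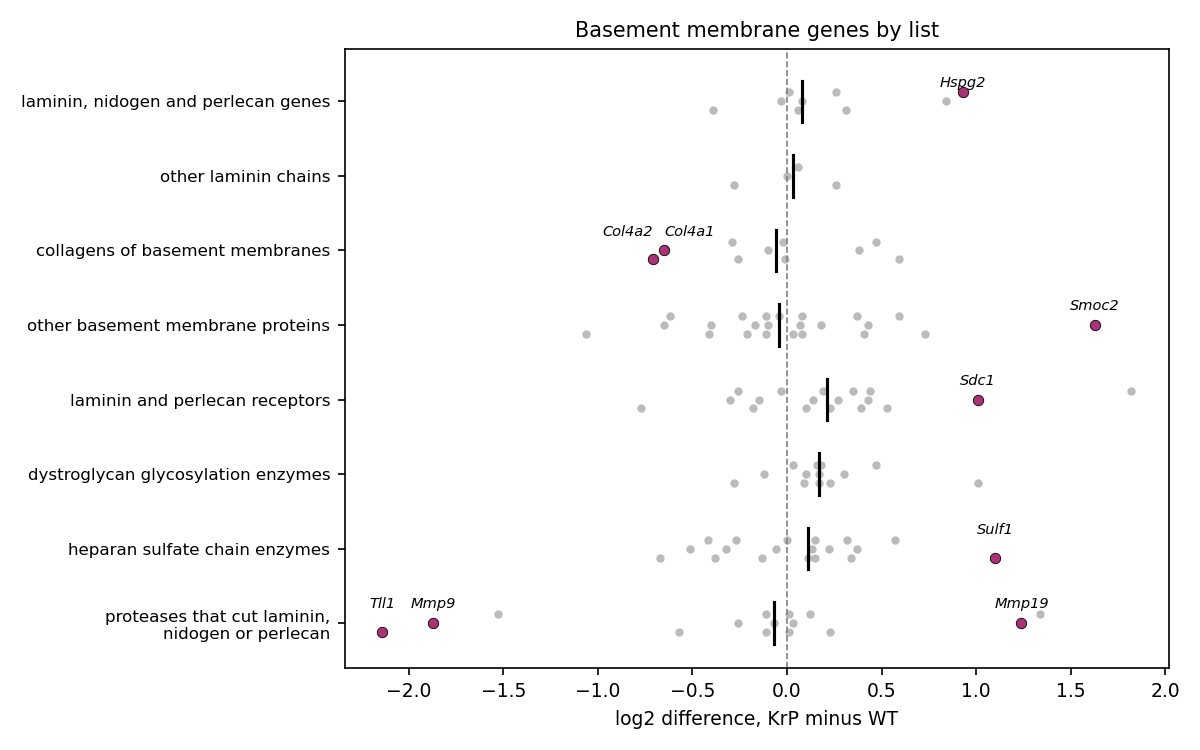
Log2 difference, KrP minus WT (horizontal axis), of each measured gene in the set described here and in 7 lists of related genes, with 1 point per gene and a black bar at each median. Coloured, named points passed the test, and the medians run from -0.07 to 0.21.

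Of 23 other basement membrane proteins, 1 rose and 0 fell (3 and 1 with the block). By their means, 5 of the 23 lay below the background guide. The median difference was -0.04, or 0.08 without the lower 50% of genes. The riser was Smoc2, a calcium-binding matrix protein, with a log2 difference of 1.63 ± 0.14 SE (limma adjusted p = 0.00228), called in all 15 alternative fits. Of 18 receptors for laminin and perlecan and related surface proteins, 1 rose and 0 fell (4 and 1 with the block). The median difference was 0.21. The list includes the collagen receptor Ddr1 and the dystroglycan-associated sarcoglycans Sgca, Sgcb, Sgcd and Sgce, whose differences were 0.10 to 0.53. Syndecan-1 (Sdc1), a cell-surface heparan sulfate proteoglycan, rose 2.01-fold (limma adjusted p = 0.00707), and lost the call without WT 3 (0.0559) or KrP 3 (0.0659). Itga1, the α1 integrin subunit that binds collagen IV and laminin, had the largest difference of the list at 1.82 ± 0.47 SE (limma adjusted p = 0.106, or 0.00541 with the block). Dag1, which encodes dystroglycan, the receptor for the globular domains of laminin α2 and of perlecan, had 0.43 ± 0.19 SE (limma adjusted p = 0.321, or 0.0458 with the block). In the other direction, Itga2, the α2 integrin subunit, had -0.77 ± 0.20 SE (limma adjusted p = 0.112, or 0.00657 with the block). Itga2 was the 1 lower call with the block. Dag1 and Itga2 were chosen after their values were seen. Cells with the laminin-binding α6 integrin (CD49f) on their surface were removed by the sort, so the Itga6 level is no finding.

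The heparan sulfate chains of perlecan are built and trimmed by enzymes. Of 19 of these, 1 rose and 0 fell (2 and 2 with the block; median 0.11). Sulf1, a secreted sulfatase that removes sulfate groups from the chains, had values of 8.18, 8.35 and 8.06 in WT and 9.55, 8.94 and 9.39 in KrP samples, and rose 2.14-fold (log2 difference 1.10 ± 0.18 SE, limma adjusted p = 0.0235). As for Hspg2, KrP 2 was the lowest KrP sample. The call ended without WT 1, WT 2, WT 3 or KrP 3, with adjusted p from 0.0519 to 0.146. Sulf2, the related sulfatase, had a difference of -0.67 ± 0.14 SE (limma adjusted p = 0.0634, or 0.0293 with the block) and was chosen after its value was seen.

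Of 10 markers of fibroblasts, the cells sorted for, 0 were called in either direction, or 3 higher and 0 lower with the block. With the block, 5.33% of all genes were called higher and 3.02% lower. The median log2 difference of the fibroblast markers was 0.45, and 5 had an unadjusted p under 0.05, all higher in KrP samples. The share of all genes under that p was not counted, so this count is no finding about the markers. Hspg2, Lama4 and the collagen IV genes are also strongly used by vessel cells, so markers of these were read on the same arrays. Of 10 endothelial markers, 0 were called higher and 2 lower in KrP samples, or 0 and 3 with the block. Cldn5 had a log2 difference of -0.95 and no longer passed with WT 3 left out (limma adjusted p = 0.0629) or with KrP 3 left out (0.0967). Tek had -0.76 at a mean of 6.14, below the background guide, and its call ended in each of the 6 fits without 1 sample. Kdr, the VEGF receptor gene, had -1.41 (limma adjusted p = 0.0658, or 0.00158 with the block), and Cdh5, the gene of VE-cadherin, had 0.54 (limma adjusted p = 0.304). The defining marker Pecam1 had a WT mean of 6.73 ± 0.35 and a KrP mean of 6.68 ± 0.09 (SD, n = 3 each). The log2 of the summed endothelial signal ran from 10.28 to 10.64 in WT and from 10.02 to 10.28 in KrP samples. Kdr weighed most in the WT sums and Cdh5 in the KrP sums, and 4 of the 10 markers lay below the guide. Of 10 pericyte and smooth muscle markers, 0 were called higher and 1 lower, or 1 and 1 with the block, and Rgs5 and Higd1b lay below the background guide in both groups. The 1 lower was Cspg4 (-1.10), which no longer passed when WT 1 was left out (limma adjusted p = 0.0704), nor when WT 2 (0.0921), WT 3 (0.137) or KrP 3 (0.148) was. The log2 of the summed pericyte and smooth muscle signal ran from 10.92 to 11.32 in WT and from 11.37 to 12.63 in KrP samples, where Acta2, the smooth muscle actin gene that activated fibroblasts also use, had a difference of 1.31 (limma adjusted p = 0.154, or 0.0138 with the block). In RNA from sorted bulk cells, fewer cells of a type and less RNA per cell cannot be told apart, and the part of these cells in the values of Hspg2, Lama4, Col4a1 and Col4a2 was not tested.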

How the data were processed

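The deposited table holds log2 expression values made by the authors, 1 per probe set and array. The submitters' processing notes list Partek and RMA, with no version or role. The genome build and any probe filter were not given in the sources used. The descriptions of KrP 2 and KrP 3 name another keratin than K14; their source names and genotypes, which name K14, were used.

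The platform annotation gave a single gene symbol to 23521 of 34390 probe sets, several symbols to 1814 and no symbol to 9055. Of the 23521, 23328 were found by gene ID in RefSeq (GRCm38.p6) and took its symbol, and 193 kept the annotation's. The probe set with the highest mean was taken per gene, leaving 22180 genes. Promoters came from RefSeq and were searched for GGGCGG on both strands.

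Group differences came from limma 3.58.1, run in R 4.3.3 (lmFit, eBayes with trend, no filter, no block), with Benjamini-Hochberg adjustment over all genes, and the fit was tested on simulated data. Ratios were tested with exact permutation tests. Figures used matplotlib 3.10.9. Arrays carry no read depth, so their number limits the precision. The genes and lists were chosen with earlier results of these data known. The text names the 9 genes, the called genes of each related list, the largest difference above background where fewer than 2 were called, 6 sort markers and the 3 genes most like Hspg2. Dag1, Itga2, Sulf2 and the uncalled proteases and cell type markers were chosen after their values were seen.

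Both groups share the replicate numbers 1 to 3. Deviations from the group mean were correlated between the samples of one number, with r over genes of 0.414, 0.35 and 0.12, each over 0.1. Between samples of unlike number r ran from -0.385 to 0.067, so number 3 was the weakest pair. This pairing comes from the data, not from a label, so the block can make p-values too small. Alternatives were the block, no trend, a robust prior, array weights, dropping the lower 25% or 50% of genes, quantile normalization, median centring, averaged probe sets and leaving out each sample.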

Additional observations from a re-analysis of the deposited data

How the results depend on the processing

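Of 22180 genes, 483 were called as reported, 1851 with the replicate block and 6410 with array weights. The count without 1 sample ran from 85 to 1116, with 230, 256 and 101 when WT 1, WT 2 or WT 3 was left out and 321, 1116 and 85 when KrP 1, KrP 2 or KrP 3 was. Of the 9 genes, 1 was called higher as reported, 2 with the replicate block, 3 with array weights, 0 with quantile normalization and 0 to 2 without 1 sample, the 2 being without KrP 2. The 0 called lower became 1 with array weights. Under the block, Lama4 was the call gained. Differences near 0 changed sign in Lama5 (-0.10 to 0.09 without 1 sample), Lamb1 (-0.08 to 0.26 without 1 sample, -0.01 with array weights) and Lamb2 (-0.13 to 0.11 without 1 sample, -0.01 with array weights and with quantile normalization). So did the ratios of Lamb2 to Lamb1 (-0.21 to 0.05) and of Nid2 to Nid1 (-0.15 to 0.02) when 1 sample was left out. None of these passed a test. The ratio of Lama4 to Lama2 ran from 0.99 to 1.46 without 1 sample. The cause of these shifts was not tested. Lama5 had no value in the fit without the lower 50% of genes. With 3 samples a group and signals of Lama5 near background, small differences in it are not detectable here.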

Other observations

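Enzymes that put the laminin-binding sugar chain on dystroglycan were read as a further list. Of 13 measured, 0 passed in either direction by limma (3 had an unadjusted p under 0.05 there, a share not counted over all genes). With the replicate block 2 rose, B4gat1 and Pomt1, where 5.33% of all genes did. B4gat1, which primes that chain, had log2 values of 8.04, 7.20 and 7.40 in WT 1 to 3 and 9.02, 8.13 and 8.53 in KrP 1 to 3. The groups did not overlap, and KrP exceeded WT within each replicate number (log2 difference 1.01 ± 0.28 SE, limma adjusted p = 0.119, or 0.00397 with the block).

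Proteases that can cut laminin, nidogen or perlecan were read with some relatives and activators of such enzymes, and calls went in both directions. Of the 15 genes, 1 was called higher and 2 lower, where 1.15% and 1.03% of all genes were. With the block these were 2 and 4, against 5.33% and 3.02%. Plat and Plau act mainly by activating plasminogen, whose gene Plg lay below the background guide, at a mean of 6.26. Tll1, a tolloid-type metalloprotease related to the enzyme that processes laminin γ2 and perlecan, had log2 values of 8.91, 8.65 and 8.58 in WT and 6.39, 6.88 and 6.46 in KrP samples, and was 4.4-fold lower (limma adjusted p = 0.00162). Mmp9, a gelatinase, was 3.65-fold lower (limma adjusted p = 0.0051), and Mmp19, which cuts nidogen-1 and collagen IV, was 2.37-fold higher (limma adjusted p = 0.00338). These 3 calls held in all 15 alternative fits. Of the others, Plat had a log2 difference of 1.34 (limma adjusted p = 0.129, or 0.00338 with the block), Plau of -1.53 (0.153, or 0.038) and Adamts1 of -0.57 (0.16, or 0.0212), while Ctsb, Ctsl, Mmp14 and Bmp1 lay between -0.11 and 0.12.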
